A study of Mus musculus with 4 samples.

Results

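The genes described here are 5 ligands and 3 receptors of the fibroblast growth factor (FGF) family with known roles in the mouse hair cycle. The ligands are Fgf5, Fgf7, Fgf10, Fgf18 and Fgf22, and the receptors Fgfr1, Fgfr2 and Fgfr3. The rule names these genes and uses no measured value, although it was written with earlier results of these data known. All 8 were found on the array, through 14 probes, among 16862 named genes. Gene expression was measured on 4 one-colour Agilent arrays of mouse skin, 1 array for each group: untreated tail skin, treated tail skin, untreated back skin and treated back skin. Treated skin received methyl aminolevulinate cream, from which cells make a light-absorbing porphyrin. It stayed in darkness for 2.5 h and was then lit in red (636 nm), which lets the porphyrin produce reactive oxygen species for a short time. The light dose was 10 J/cm2 for the tail and only 2.5 J/cm2 for the back. The skin was taken 48 h later. Back skin was shaved for treatment, and the labels do not say whether the untreated back was shaved too. The study design gives 3 animals a group, but whether their RNA was pooled, and the strain, sex and age, are not given in the sources used here.

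FGFs are secreted signals that bind receptor tyrosine kinases together with heparan sulfate and switch on the RAS and ERK kinases inside the cell. In the hair follicle, FGF7 and FGF10 come from the dermal papilla and dermis and act on epithelial cells through the b splice form of FGFR2. FGF22 belongs to the same subfamily and is made by follicle epithelium, and FGF5 ends the growth phase, so that mice without it have long, angora hair. FGF18 is made in resting follicles and prolongs rest.

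Because each group had 1 array, replicate error is unknown for every difference and no p-value is given. A level is the log2 of the spot's processed signal divided by the array's 75th percentile of that signal, so 0 is the 75th percentile. A difference is the first level minus the second, and it was called from 2-fold, a log2 size of 1. The error given with a difference (± spot error) is the scanner's own error for the spots and does not cover animals. For genes with several probes, the brightest probe stands for the gene and the others are given beside it. Levels of different probes are not comparable.

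The upstream sequences of 4 of the members that differed between treated and control arrays are shown as examples. Fgf5 and Fgf7 were past 2-fold in the tail too, and their sequences are not shown. Fgf22 had the largest treatment difference, Fgf18 was higher on both treated arrays, and Fgfr2 and Fgfr3 were both lower on the treated tail array. Each run is the stretch just before the gene's start, 5′ to 3′ on the gene's strand, from RefSeq windows of assembly GRCm38.p6. Capitals mark matches to GGGCGG, the SP1/KLF motif, or to TGACNNNGC, the antioxidant response element, on either strand.
Fgf22 (chr10:79754859-79755050, + strand): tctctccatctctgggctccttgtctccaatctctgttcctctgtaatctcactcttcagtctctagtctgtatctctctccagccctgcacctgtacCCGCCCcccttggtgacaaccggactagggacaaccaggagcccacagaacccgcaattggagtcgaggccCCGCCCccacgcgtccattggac
Fgf18 (chr11:33147401-33147650, - strand): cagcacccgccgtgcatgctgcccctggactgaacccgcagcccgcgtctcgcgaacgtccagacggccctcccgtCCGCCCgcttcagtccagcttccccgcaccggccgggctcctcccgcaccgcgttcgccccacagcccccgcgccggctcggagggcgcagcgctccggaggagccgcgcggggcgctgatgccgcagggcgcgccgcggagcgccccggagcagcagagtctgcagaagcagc
Fgfr2 (chr7:130266809-130267058, - strand): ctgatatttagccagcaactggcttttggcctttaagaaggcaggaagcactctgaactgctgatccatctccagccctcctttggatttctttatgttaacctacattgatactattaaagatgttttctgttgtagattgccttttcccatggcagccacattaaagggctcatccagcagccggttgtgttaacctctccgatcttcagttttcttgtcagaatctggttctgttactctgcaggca
Fgfr3 (chr5:33721474-33721723, + strand): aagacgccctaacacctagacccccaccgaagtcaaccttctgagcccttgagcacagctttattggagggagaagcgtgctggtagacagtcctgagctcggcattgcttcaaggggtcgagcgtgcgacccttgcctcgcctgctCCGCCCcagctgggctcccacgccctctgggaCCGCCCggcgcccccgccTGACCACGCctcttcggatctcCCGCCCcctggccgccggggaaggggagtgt

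RefSeq windows were found for 7 of the 8 members. The SP1/KLF letters occurred 3 times in the 250 bases before the Fgf22 start, and the run above is cut to 192 bases because the rest lies inside the annotated gene. For Fgfr3 the table holds windows at 2 starts. The first, printed above, holds the letters 3 times, and the second, inside the annotated gene, has 2 overlapping matches. The letters occurred once each in those of Fgf5, Fgf10 and Fgf18, and not in those of Fgf7 and Fgfr2. Of all 32851 windows of that length, 32.7% hold them. The antioxidant element letters were found in the first Fgfr3 window alone among those of the 7 members, 53 to 45 bases before the start, and 10.2% of all windows hold them. No member's window held the AP-1 motif TGACTCA, which 4.46% of all windows hold. The same was true of the ETS motif CCGGAAGT (2.88% of windows) and of TATAAA, a core promoter box (12.4% of windows). No SP1/KLF match overlapped the antioxidant element. The Fgf18 window was the richest in G and C at 77.2%, and that of Fgfr2 held 44.0%, against a median of 52.4% over all windows. A match describes letters and shows no binding.

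The arrays differed in brightness, which bears on every member. The 75th percentile of the signal was 7261 on the control and 909 on the treated tail array, and 1860 and 1204 on those of the back. The lowest signals well above background lay between 10.3 and 21.2. After the 75th percentile scaling, the median of all genes differed by 0.33 between the tail arrays and by -0.011 between the back arrays. Other settings were set against this scaling among the genes measured under both. The median shift of their tail differences was -0.34 (cyclic loess), -0.17 (quantile normalization), 0.41 (normexp background correction) and -2.06 (scaling to spike-in RNA). Only the last of these moves every gene by the same amount, and the others moved single genes by more or less than the median. Of all called genes, 80.6% were higher on the treated tail array, or 54.6%, 59.1%, 91.5% and 1.31% with these settings in the same order. In the back, 51.8% of calls were higher, or 19.8% with spike-in scaling. All 9 basal keratinocyte markers were well above background on every array, as were 10 or 11 of 13 dermal fibroblast markers, although the extraction protocol calls the tail tissue epidermis and the labels call it skin.

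**Figure D1:**
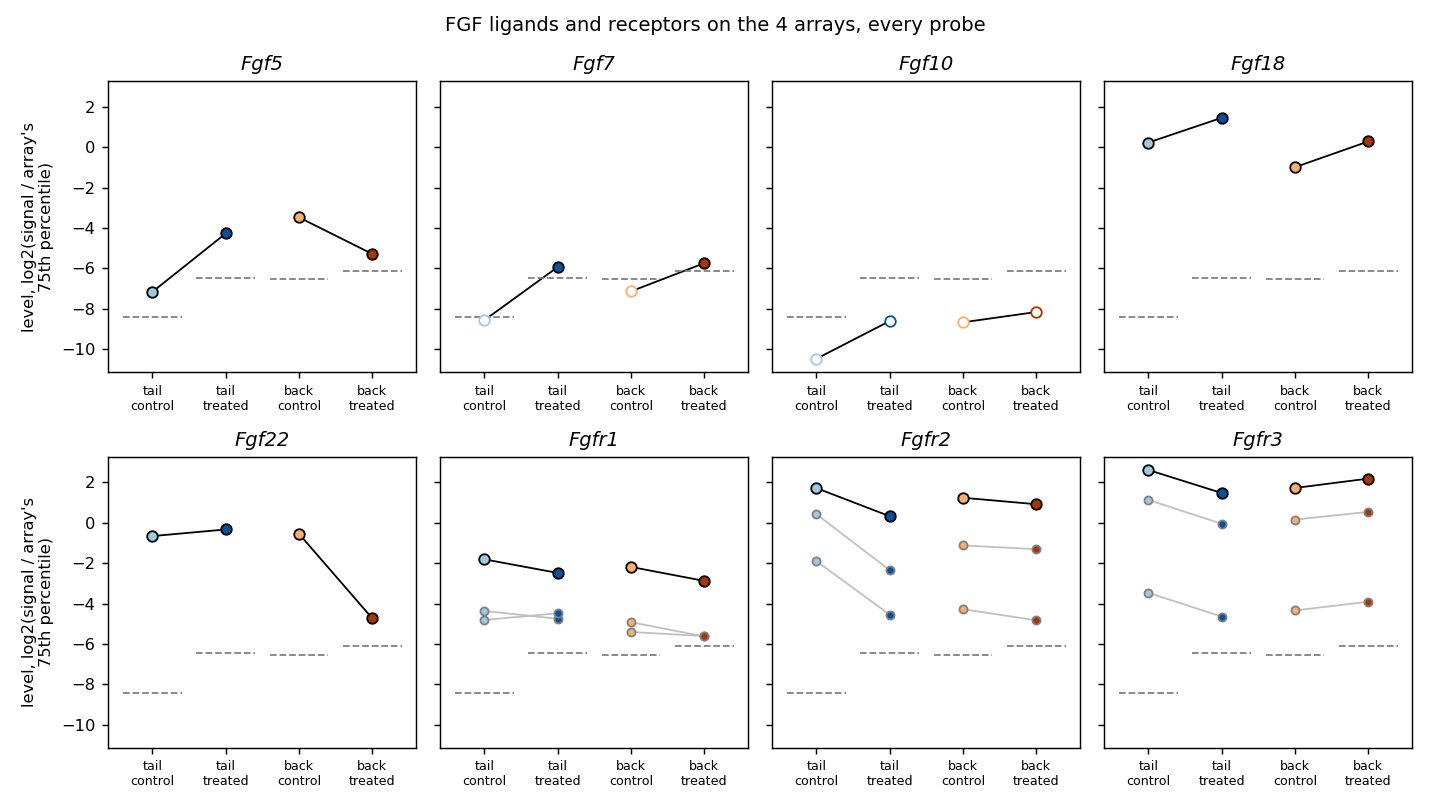
Level of each member on the 4 arrays, as log2 of the signal over the array's 75th percentile. Large points joined by black lines are the brightest probe of a gene and small points joined by grey lines the others; open points were not well above background, and dashed marks give the lowest level well above background on that array. Fgf22 was at -0.65, -0.33 and -0.54 on 3 arrays and at -4.73 on the treated back array, while the 3 probes each of Fgfr2 and Fgfr3 were lower on the treated than on the control tail array.

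Treated tail skin was compared with untreated tail skin to see which members differed 48 h after the burst. Of the 8 members, 7 had a value. After scaling, Fgf5, Fgf7 (by a bound) and Fgf18 were at least 2-fold higher on the treated array, where 27.2% of all genes were. Fgfr2 and Fgfr3 were at least 2-fold lower, where 6.55% of all genes were. Fgf22 and Fgfr1 lay within 2-fold. The 7 members had a median of 0.33, the same to 2 decimals as that of all genes. The treated back array differed from the control in other members. Fgf18 was again 2-fold higher, where 13.6% of all genes were. Fgf22 and Fgf5 were at least 2-fold lower, where 12.6% of all genes were, and the 7 members with a value had a median of -0.32.

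**Figure D2:**
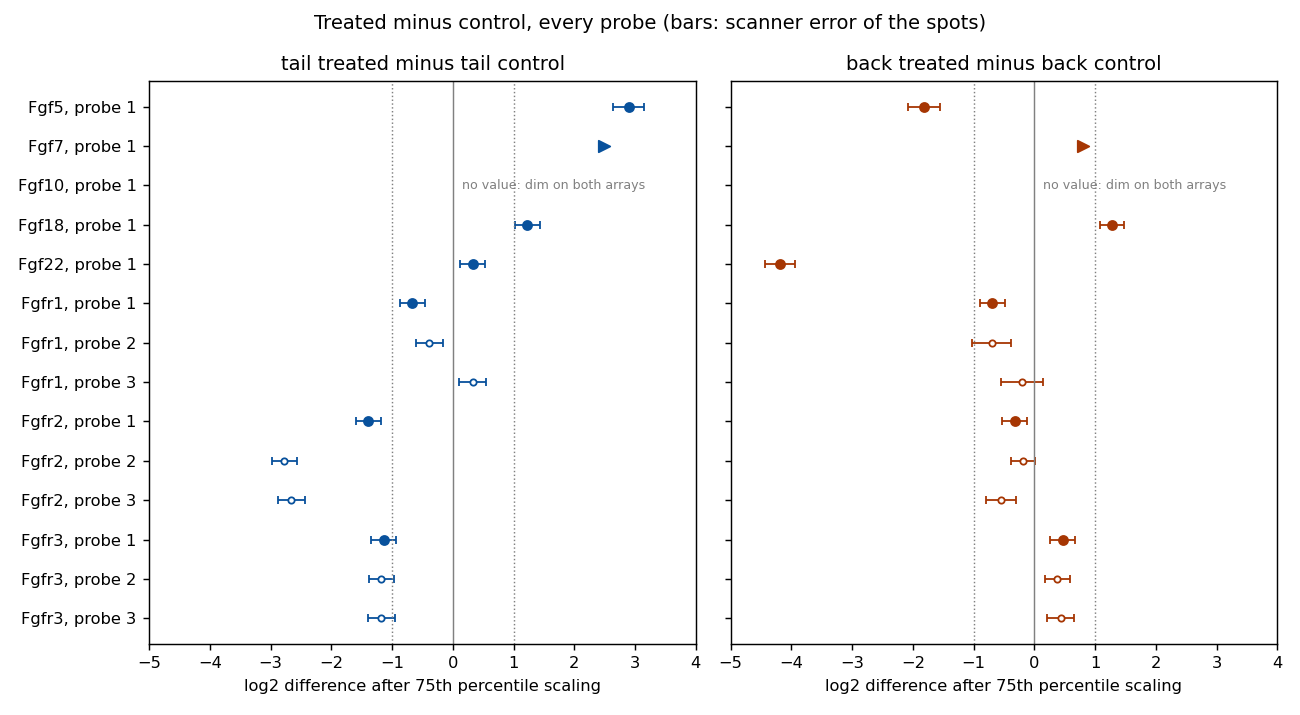
Difference between treated and control arrays for each of the 14 probes, in the tail (left) and the back (right), on the log2 scale. Filled points are the probe that stands for its gene, bars the scanner error of the spots, triangles lower bounds, and dotted lines the 2-fold limits. The 3 Fgfr3 probes lie together at -1.14 to -1.18 in the tail, the 3 Fgfr2 probes spread from -1.39 to -2.78, and Fgf22 in the back stands at -4.19.

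Among the ligands, Fgf22, which signals to epithelial cells of the follicle, had the largest difference. Its signal was 4612 on the tail control, 724 on the tail treated, 1276 on the back control and 45.2 on the back treated array. Its levels were -0.65, -0.33, -0.54 and -4.73. The treated back array was thus the low one, and the other 3 lay within 0.33 of each other, where the spot error of a difference was 0.20. Fgf22 was 18.3-fold lower on the treated than on the control back array, a log2 difference of -4.19 ± 0.25 (spot error). Of 12480 genes measured on both back arrays, 19 differed by as much in that direction, Fgf22 included. In the tail its difference was 0.33 ± 0.20, with 50.6% of measured genes as high or higher. Against the treated tail array, the treated back array was at -4.41 ± 0.25. The gene is read by 1 probe with 1 spot.

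Markers of the hair matrix, inner root sheath and shaft were also lower on the treated back array. Of 19 such genes on the array 17 had a value there. Of these 11 were lower and 1 higher (median -1.5), against 12.6% and 13.6% of all genes. In the tail 7 had a value, of which 4 were higher and 0 lower (median 1.28), against 27.2% and 6.55% of all genes. There 11 and 9 of the 19 were saturated on the control and treated arrays. Between the untreated arrays 14 of 17 were lower in the back and 1 higher (median -4.24), against 17.2% and 27.4% of all genes. Only 7 of these 17 were measured and the others had bounds. Fgf22 differed by 0.11 ± 0.20 between the untreated arrays. The summed scaled signal of the list, in units of the 75th percentile, was 110 on the tail control, 790 on the tail treated, 48.8 on the back control and 57.0 on the back treated array. Saturated spots count at their ceiling, over a 75th percentile of 7261 on the tail control and 909 on the tail treated array. The tail sums are thus no measure of a rise. The transcription factor gene Gata3, saturated on both back arrays, makes up most of the sums in the back. In the back the lowest value of the list was that of the keratin Krt84 at -4.77, and the transcription factor Dlx3 was at -2.31. The 1 gene of the list that was higher there was Lef1 at 1.52, and Foxn1 (0.25) and Hoxc13 (-0.39) were among those within 2-fold. The part of these cells in the Fgf22 and Fgf5 differences was not tested. In such tissue samples, fewer cells of a type and less RNA per cell cannot be told apart.

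Fgf5, the signal that ends hair growth, was dim. Its signals were 50.4 on the tail control, 46.9 on the tail treated, 167 on the back control and 30.8 on the back treated array, all well above background. Its levels were -7.17, -4.28, -3.48 and -5.29. The control back array was thus the highest and the control tail array the lowest. In the back Fgf5 was 3.51-fold lower after treatment, at -1.81 ± 0.26 (spot error), and 3.86% of measured genes were as low or lower. With normexp background correction this difference was -0.68, under 2-fold. In the tail it was 7.44-fold higher, at 2.90 ± 0.25, although the signals of the tail arrays were nearly equal before scaling. That value was 2.24 with cyclic loess, 5.04 with normexp and 0.83 with spike-in scaling. The untreated back array exceeded the untreated tail array by 3.69 ± 0.25, or 12.9-fold, and settings gave from 2.89 to 3.72.

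Fgf18, the signal of resting follicles, was higher on both treated arrays. Its signals were 8499 on the tail control, 2490 on the tail treated, 935 on the back control and 1468 on the back treated array, which gave levels of 0.23, 1.45, -0.99 and 0.29. The treated tail array was highest and the control back array lowest, and the control tail and treated back arrays differed by less than the spot error. The tail difference was 1.23 ± 0.20 (2.34-fold), and 21% of measured genes were as high or higher. The back difference was 1.28 ± 0.20 (2.43-fold), with 8.53% of measured genes as high or higher. The tail value was 0.81 with normexp and reversed to -0.83 with spike-in scaling, and the back value was 0.80 with spike-in scaling. Back skin was lower than tail skin on the control arrays by 1.22 on the log2 scale, at -1.22 ± 0.20, and on the treated arrays at -1.17 ± 0.20.

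Fgf7 and Fgf10, the ligands made by dermal cells, were at or under the limit of these arrays. The Fgf7 probe was well above background on the treated tail and treated back arrays only, with signals of 14.8 and 22.5, against 19.1 and 13.2 on the control arrays. After the 75th percentile scaling it was therefore at least 5.60-fold higher on the treated tail array and at least 1.75-fold higher on the treated back array. Both bounds hold for that scaling alone, and before scaling the tail signal was lower on the treated array. On the log2 scale the first bound was 2.48, and it was 1.55 with cyclic loess and 0.42 with spike-in scaling. The treated arrays differed by 0.20 ± 0.42, back minus tail, and by -2.91 with normexp. The Fgf10 probe, printed in 10 spots, was not well above background on any array, with mean signals of 5.08, 2.32, 4.56 and 4.20, so no difference can be given. Fgf10 RNA was not detectable here, which does not show that it was absent.

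Of 11 dermal papilla markers, 5 to 7 were well above background on an array. The defining markers Sox2 and Corin had signals of at most 26.6 and 9.95, while Trps1, a transcription factor, had 11890 and 1005 on the control and treated tail arrays and the WNT inhibitor Wif1 had 2566 and 92.5. Of the 6 with a value in the tail, 2 were higher and 2 lower (median 0.10), and in the back 2 were higher and 0 lower (median 0.24). The shares of all genes higher and lower were 27.2% and 6.55% in the tail, and 13.6% and 12.6% in the back. Among the papilla markers, Alpl at 3.31 and Vcan at 1.63 were higher in the tail, and Wif1 at -1.80 and Hhip at -1.09 were lower. The summed scaled signals of the papilla markers were 2.09 and 1.54 in control and treated tail and 0.52 and 0.58 in control and treated back. Trps1 makes up most of the tail sums. T cell markers, since T cells of the epidermis can make FGF7, were higher in 1 of 5 cases in the tail (median 0.59) and lower in 1 of 5 in the back (median -0.75). Their sums were 0.092, 0.13, 0.69 and 0.39 in that order. The part of either cell type in the Fgf7 bounds was not tested.

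Among the receptors, Fgfr2, the receptor for FGF7, FGF10 and FGF22 on epithelial cells, was lower on the treated tail array by every one of its 3 probes. The brightest probe had signals of 23990 on the tail control, 1142 on the tail treated, 4406 on the back control and 2282 on the back treated array, and levels of 1.72, 0.33, 1.24 and 0.92. The tail control array was the highest and the treated tail array the lowest. The tail difference was -1.39 ± 0.20 (2.63-fold lower), and 2.88% of measured genes were as low or lower. The second probe was printed in 10 spots, whose SD within an array ran from 0.024 to 0.082 log2 units. It had mean signals of 9806, 179, 858 and 488 in the same order and a tail difference of -2.78 ± 0.20. The third probe, with signals of 1963, 38.8, 96.2 and 42.4, gave -2.66 ± 0.22. The SD between these probes was 0.77, against a median of 0.40 over 4115 genes with several probes. With normexp the third probe turned to 0.82 while the others stood at -1.5 and -1.26. Whether the probes read different splice forms is not given in the sources used here.

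In the back, the 3 Fgfr2 probes gave -0.32, -0.19 and -0.55, all within 2-fold. The untreated back array was below the untreated tail array by the brightest probe at -0.48, and by the others at -1.55 and -2.39, past 2-fold. The treated back array stood at 0.59, 1.04 and -0.28 relative to the treated tail array, so the probes disagreed there in sign.

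Fgfr3, which in skin is carried by keratinocytes, was the member whose probes agreed best. Its brightest probe had signals of 44630 on the tail control, 2535 on the tail treated, 6162 on the back control and 5505 on the back treated array, none saturated, and levels of 2.62, 1.48, 1.73 and 2.19. The tail control array was the highest and the treated tail array the lowest. The 3 probes gave tail differences of -1.14, -1.18 and -1.18, with an SD of 0.024, and 4.73% of measured genes were as low or lower than the first. The back differences were 0.47, 0.38 and 0.43, within 2-fold and opposite in sign. The untreated back array was below the untreated tail array by 0.88 to 0.97 on the log2 scale, at -0.89, -0.97 and -0.88. By the brightest probe it passed 2-fold with quantile normalization (-1.24), cyclic loess (-1.37) and spike-in scaling (-1.70). By the value that stands for the gene, the tail differences of Fgfr2 and Fgfr3 were past 2-fold in all 10 alternative settings. They ran from -1.39 to -3.46 and from -1.14 to -3.20. Not all settings could move them. Dropping the filter or requiring a minimum signal leaves the difference of such bright, unsaturated probes as it was. With outlier spots kept and with the authors' value table, the median shift of the genes' tail differences was only -0.0116 and -0.0115. With cyclic loess Fgfr2 and Fgfr3 stood at -1.594 and -1.622, and with quantile normalization at -1.485 and -1.365. With normexp the dimmest Fgfr3 probe turned to 2.31 in the tail, past 2-fold higher, while the other probes stood at -1.23 and -1.52.

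Basal keratinocyte markers were lower on the treated tail array as well. Of 9 such genes 4 had a value, of which 3 were lower and 0 higher (median -1.59), and the other 5 were saturated on the tail control array. In the back 6 had a value, 4 of them higher and 0 lower (median 1.73). The summed scaled signals were 56.5 on the tail control, 267 on the tail treated, 155 on the back control and 306 on the back treated array, where saturated spots count at their ceiling. These sums, too, are no measure of a rise. Other cell types showed other directions in the tail. All 6 adipocyte and all 6 endothelial markers with a value were higher on the treated tail array (medians 2.11 and 2.01), as were 6 of 8 skeletal muscle markers (median 1.16). With cyclic loess these counts were 4, 5 and 3, where 14.4% of all genes were higher. In the back 1 of 6, 3 of 6 and 3 of 7 were higher. The shares of all genes higher and lower were 27.2% and 6.55% in the tail, and 13.6% and 12.6% in the back. Before scaling, all of the adipocyte and endothelial signals with a tail value except Cdh5 were lower on the treated tail array. Plin1 had 26.75 against 86.63 on the control and Pecam1 59.98 against 128, while Cdh5 had 83.65 against 41.18. On the control tail array all but Fabp4 were dimmer than the measured basal markers (3943 to 39240). Brightness and cell type cannot be told apart here. Dermal fibroblast markers were mixed, with 5 of 10 higher and 2 lower in the tail (median 1.03) and 4 of 10 higher and 1 lower in the back (median 0.46). The part of any of these cells in the receptor differences was not tested.

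Fgfr1, which in the follicle is found in the dermal papilla, lay within 2-fold in both treatment comparisons. Its brightest probe had signals of 2078 and 163 on the control and treated tail arrays and 410 and 164 on those of the back, and levels of -1.81, -2.48, -2.18 and -2.88. The tail differences were -0.67 ± 0.21, -0.39 ± 0.22 and 0.33 ± 0.22 by its 3 probes, so no direction was shared. They were 0.88, 3.08 and 3.56 with normexp, and the first was -2.74 with spike-in scaling. The back differences were -0.69 ± 0.21, -0.70 ± 0.32 and -0.20 ± 0.34, the first of which passed 2-fold with spike-in scaling, at -1.17. Between the skins the control arrays gave -0.38, -0.56 and -0.60 and the treated arrays -0.40, -0.88 and -1.13, back minus tail.

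Untreated back skin was set against untreated tail skin to see how the sites differ without treatment. Of 6 members with a value, Fgf5 was 2-fold higher in the back, where 27.4% of all genes were, and Fgf18 2-fold lower, where 17.2% of all genes were. Between the treated arrays, Fgf5, Fgf18 and Fgf22 were 2-fold lower in the back, where 20.5% of all genes were, and no member was 2-fold higher, where 15.9% of all genes were. Fgf5 stood at -1.02 ± 0.27 there and was under 2-fold with quantile normalization (-0.77), cyclic loess (-0.48) and spike-in scaling (-0.24). Fgf18 was under it with normexp (-0.82) and spike-in scaling (-0.39). These comparisons share arrays with the treatment comparisons and are not independent of them.

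The rest of the pathway was read from 4 lists of 75 genes, of which 71 were on the array. In the tail 52 genes had a value, of which 14 (26.9%) were higher and 8 (15.4%) lower, against 27.2% and 6.55% of all genes, with a median of 0.033 against 0.33. In the back 57 had one, of which 9 (15.8%) were higher and 4 (7.02%) lower, against 13.6% and 12.6% of all genes, with a median of 0.11 against -0.011. Of the other FGF ligands, 6 of 9 with a value were higher in the tail and 2 lower. Their median was 1.27, and it was 0.40 with cyclic loess, where 4 were higher. Lower were Fgf1, a ligand of all FGF receptors, at -3.04 and Fgf13, an intracellular homologue that binds sodium channels, at -2.02. Among the higher were Fgf11, another such homologue, at 2.21 and Fgf17, of the subfamily of Fgf18, at 1.99, with a signal of only 29.1 on the treated array. In the back Fgf21, a hormone released under metabolic stress, was 18.2-fold higher at 4.19 ± 0.21, with signals of 289 on the control and 3405 on the treated array. Fgf1 was lower there too, at -2.18, and of the other 7 ligands with a value 5 lay within 2-fold and 2 had bounds under it.

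The feedback and target genes that ERK signalling switches on in many tissues held 5 called genes in the back and 6 in the tail. In the back 5 of 10 with a value were higher and 0 lower (median 0.93), where 13.6% of all genes were higher and 12.6% lower. The higher ones were the ETS factors Etv4 at 1.98 ± 0.20 and Etv5 at 1.52 ± 0.28. So were the ERK inhibitors Spred2 at 1.59 ± 0.21, Spred3 at 1.07 ± 0.21 and Spred1 at 1.05. In the tail 3 of 11 were higher and 3 lower (median 0.059), where 27.2% of all genes were higher and 6.55% lower. With cyclic loess 1 of 12 was higher in the tail and 3 lower (median -0.45). The inhibitor Spry2 was at -2.94 ± 0.20 there and Etv5 at -2.49 ± 0.33, with a signal of 12.3 on the treated array, and Spred1 at -1.22. Etv4 was at 1.45 ± 0.20, Spry4, another Sprouty inhibitor, at 1.66 ± 0.34 and the ERK phosphatase Dusp6 at 1.21. Etv4 was thus higher on both treated arrays. Dusp6 had the same sign in the back at 0.80, under 2-fold, while Etv5 and Spred1 were lower in the tail and higher in the back.

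Receptor partners and transducers lay mostly within 2-fold, as did most of all genes. Of all genes, 27.2% were higher and 6.55% lower in the tail, and 13.6% and 12.6% in the back. Of 18 other receptors, coreceptors and extracellular modulators with a value in the tail, 3 were higher and 1 lower: the hormone coreceptor Klb at 2.22, the adhesion protein Flrt2 at 2.02 and the decoy receptor Fgfrl1 at 1.43, with the heparan sulfatase Sulf1 at least 6.66-fold lower. In the back 17 of 20 were within 2-fold, with the sulfotransferase Hs6st1 at 1.35, Flrt2 at 1.26 and the carrier protein Fgfbp3 at -1.03. Of the intracellular transducers 10 of 14 in the tail and 15 of 18 in the back were within 2-fold. The receptor substrate Frs3 was at 2.78 in the tail and -1.88 in the back. The docking protein Gab1 was lower in both, at -1.08 and -1.17. The exchange factor Sos1 was at -1.40 and the ERK kinase Map2k2 at 1.20 in the tail, and Map2k1 was at 1.39 in the back.

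**Figure D3:**
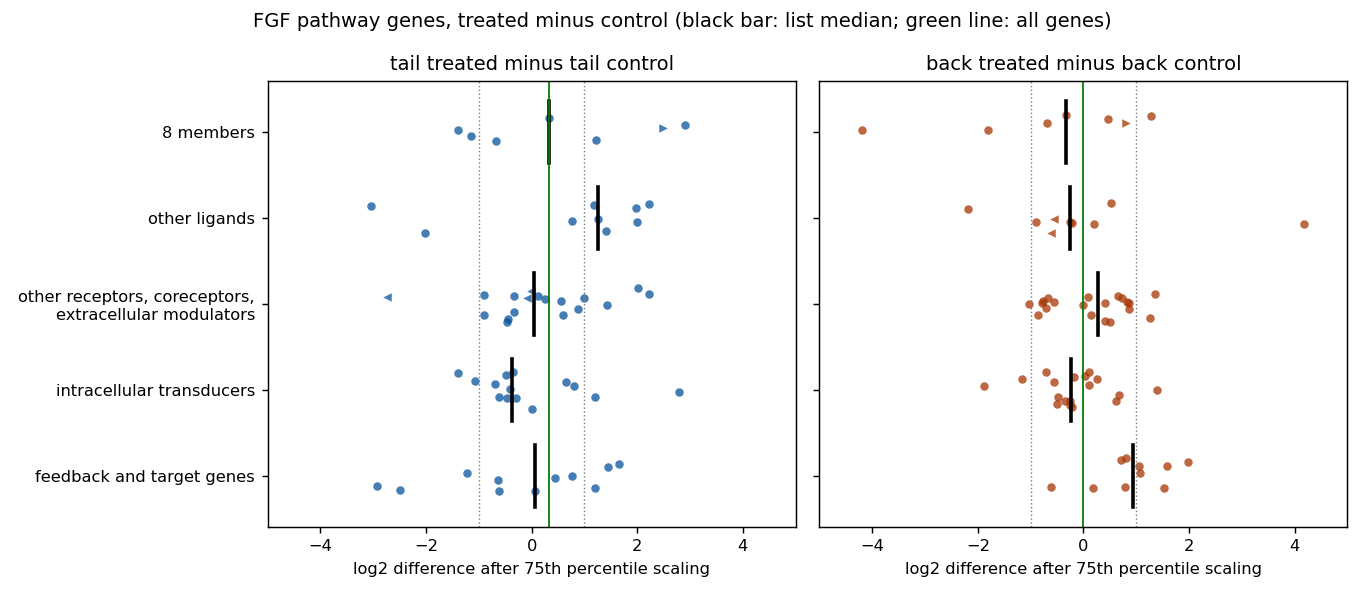
Differences between treated and control arrays for the 8 members and for 4 lists of other FGF pathway genes, in the tail (left) and the back (right), on the log2 scale. Each point is a gene, triangles are bounds, black bars are list medians, the green line is the median of all genes and dotted lines are the 2-fold limits. The feedback and target genes have a median of 0.93 in the back and of 0.059 in the tail.

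Profiles over the 4 arrays, each centred on its own mean, were compared by their root mean square difference among 11281 genes measured on all 4. For Fgf22 the nearest was Qpct at 0.17, followed by Rbpjl at 0.28 and Kcnh3 at 0.37, and 1 gene lay within 0.25. For Fgf5 the nearest were Apol9b at 0.10, Klk1 at 0.16 and the FGF receptor substrate Frs3 at 0.20, with 4 genes within 0.25. The receptors had many near genes: 264 for Fgfr1, 96 for Fgfr2 and 208 for Fgfr3. Nearest to Fgfr1 were Sostdc1 at 0.020, Ncam1 at 0.045 and Cd55b at 0.058, and to Fgfr2 Herc2, Cyp4a31 and Man1c1, each at 0.095. For Fgfr3 they were Selenon at 0.050, Ptn at 0.059 and Tmx1 at 0.070. Fgf18 had 91 genes within 0.25, with Ammecr1 at 0.043, Rrp1b at 0.046 and Zfp428 at 0.059 the nearest. With 4 arrays, such likeness is easily met by genes with modest differences and describes these arrays alone.

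**Figure D4:**
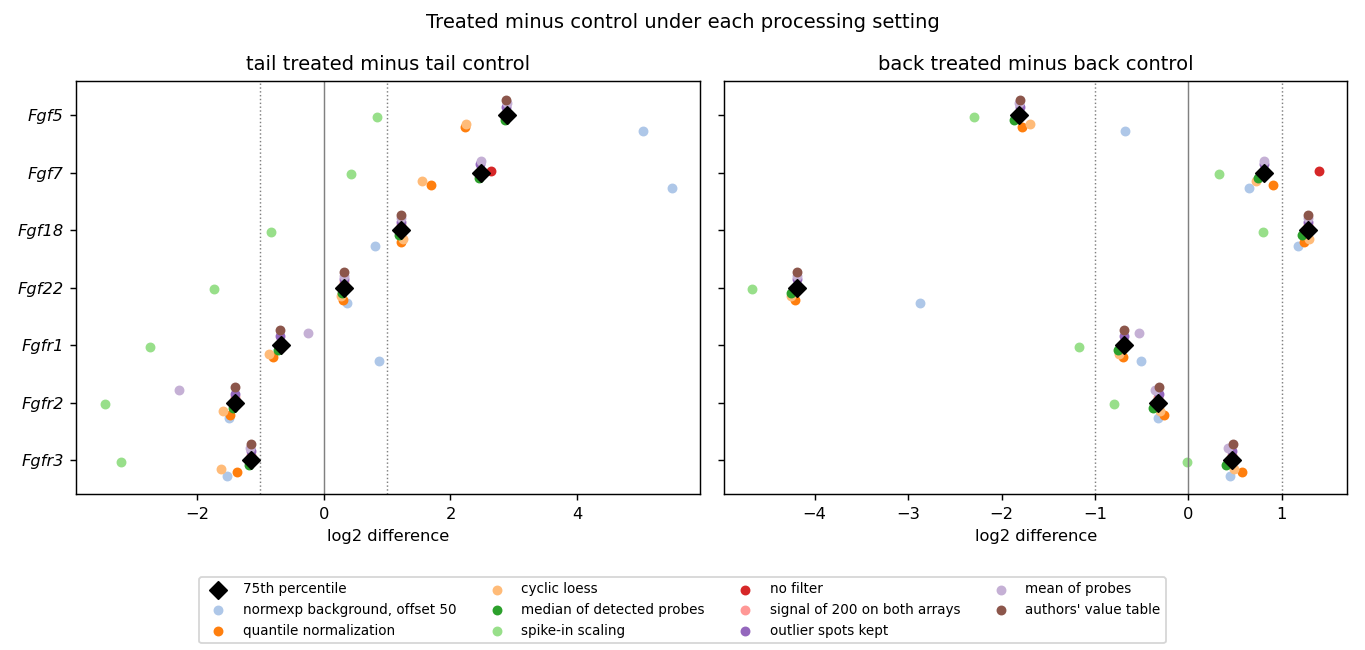
Treated minus control for the 7 members with a value under the 75th percentile scaling (black diamonds) and 10 other processing settings (coloured points), in the tail (left) and the back (right), on the log2 scale. Solid lines mark 0 and dotted lines the 2-fold limits. In the tail, spike-in scaling moves every member lower, Fgf18 to -0.83, while Fgfr2 and Fgfr3 lie below -1 in each setting. In the back, Fgf22 lies between -2.87 and -4.67. Dropping the filter or requiring a minimum signal cannot move the difference of a bright, unsaturated probe.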

How the data were processed

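Each array's spots were read with Agilent Feature Extraction 10.5.1.1 per the file headers, while the submitters' processing notes name 10.7. The deposited processed signal is a background-corrected intensity, not normalized between arrays, per the file headers. The authors' deposited value table is on a log2 scale. Between arrays its differences equalled log2 differences of processed signal, up to a constant and a tolerance of 0.001, for at least 99.9% of probes, which gives its scale and direction. Its probes are centred on their median over the 4 arrays, the column medians are -0.284, 0.0994, -0.0307 and 0.0842 (tail control, tail treated, back control, back treated), and how its arrays were scaled is not stated.

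Labelling used 200 ng of RNA, per the labels' protocols. Outlier spots were dropped, repeated spots averaged on the log2 scale and each array scaled to the 75th percentile of its 41174 probes. Of these, 24375 (59.2%) matched 1 symbol through their accession in RefSeq's GRCm38.p6 table, 0 matched several and 16799 matched none. The headers name build mm8, so no probe coordinates are given. A gene not well above background, or saturated, on 1 of 2 arrays has a bound: a dim level is set to the higher of its own and the lowest well above background. Genes dim or saturated on both have none.

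Groups came from the sample titles. Of a pathway list, up to 4 called genes a comparison are named by size. Spred1, Dusp6 and the marker genes Krt84, Dlx3, Gata3, Sox2, Corin, Trps1 and Wif1 fall outside that rule and were named after their values were seen. So were the marker genes Lef1, Foxn1, Hoxc13, Alpl, Vcan, Hhip, Plin1, Pecam1, Cdh5 and Fabp4. The members and lists were chosen with earlier results of these data known. Calling was tested on simulated arrays with spot noise only. Alternatives used limma 3.58.1 in R 4.3.3. The 4 arrays share 1 slide, per the file headers, and each group has its own place on it, so place and group cannot be told apart. The number of arrays limits the precision.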

Additional observations from a re-analysis of the deposited data

Results flagged for a closer look

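For 3 members the treatment differences of tail and back had opposite signs, and the difference between these responses was not tested, since each rests on 1 pair of arrays. Fgf5 was at 2.90 in the tail and -1.81 in the back, a back response minus tail response of -4.71 ± 0.37 (spot error, log2 scale). For Fgf22, at 0.33 in the tail and -4.19 in the back, it was -4.52 ± 0.32. Fgfr3 was at -1.14 in the tail and 0.47 in the back, which gives 1.61 ± 0.29, and its other probes had the same signs. With normexp the dimmest Fgfr3 probe was at 2.31 in the tail and 0.49 in the back, so its signs did not oppose. With spike-in scaling Fgf22 was at -1.73 in the tail and Fgfr3 at -0.014 in the back, so that their signs no longer opposed.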

How the results depend on the processing

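Of the 10 alternatives, cyclic loess, quantile normalization, centring on detected probes, outlier spots kept, the mean of probes and the authors' value table kept each count of called members within 1.5 times its value of 5 (tail), 3 (back), 2 (untreated skins) and 3 (treated skins). With a signal of 200 required on both arrays these counts were 3, 1, 1 and 1, since Fgf5, Fgf7 and Fgf10 then have no value in any of them and Fgf22 and Fgfr1 in some. Between the untreated skins, spike-in scaling gave 5 and no filter 4, and between the treated skins normexp gave 5. Spike-in scaling reversed the tail difference of Fgf18 to -0.83, and it moved all tail differences by -2.06. The normexp offset of 50 is a larger share of the 75th percentile on dim than on bright arrays, which raises dim probes of the treated tail array. Over all genes, 4338 were called in the tail, against 7176 without a filter, 1645 with a signal of 200 and 10447 with spike-in scaling. In the back 3524 were called, against 2266 with a signal of 200. Between the untreated skins 5713 were called, against 3540 with a signal of 200, and between the treated skins 5135, against 2689. Among calls between the untreated skins 61.4% were higher in the back, or 46.9% with quantile normalization, 47.7% with cyclic loess and 23.4% with spike-in scaling. Between the treated skins 43.7% were, or 21.8% with normexp and 81.5% with spike-in scaling. Naming probes by a gene name column was not run, as the files used here hold none. No paired analysis was possible because each group has 1 array. Signals near background limit Fgf5, Fgf7 and Fgf10.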
